A study of Mus musculus with 32 samples.

Results

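The MYC family and the MAX network were followed through the bulk RNA profiles of 14 mouse brain tumors. The 10 genes were taken by name from the 37310 genes of the tumor count table. They are the MYC paralogs Myc, Mycn, Mycl and Mycs, their shared partner Max, and the MAX partners Mxd3, Mxd4, Mxi1, Mnt and Mga. All 10 had a row in the table. GMYC tumors (n = 6) came from Glt1-tTA/TRE-MYC mice, in which a human MYC transgene is switched on by the tetracycline transactivator made from the Glt1 promoter and is switched off by doxycycline. GTML tumors (n = 8) came from the related model, in which MYCN is driven from the same Glt1 promoter. The paper describes some GTML profiles as generated earlier and others as new, and the labels do not tell which are which. Model and time of sequencing can therefore not be fully told apart. The GMYC mice were double hemizygous, and all transgenic crosses of the study had an FVB/N background. The age of each tumor-bearing mouse is not given in the sources used here. Each profile is total RNA from a fresh-frozen biopsy and not from sorted cells, so a change in the share of a cell type and a change in RNA per cell cannot be told apart. Nothing in the labels says which mouse a biopsy came from, so the p-values measure the spread between these biopsies.

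MYC proteins are basic helix-loop-helix leucine zipper transcription factors that bind E-box DNA only as heterodimers with MAX. MXD proteins, MXI1, MNT and MGA compete for MAX and for the same DNA, and the first 3 of these bring in SIN3 and histone deacetylase corepressors, while MGA belongs to a Polycomb-type complex. In the cerebellum, MYCN is the family member that drives expansion of granule neuron precursors. In medulloblastoma, a malignant cerebellar tumor of childhood, amplification of MYC or MYCN goes with a poorer prognosis.

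Total counts ran from 6218378 to 7279811 in GMYC tumors and from 4602294 to 6317404 in GTML tumors. Levels are CPM, the counts of a gene scaled to a common library size with TMM factors, and levels of different genes are compared only as CPM per kb of exon. The share of counts on small nucleolar RNA (snoRNA) genes split the tumors beyond their model. It was 0.366 to 0.438% in GMYC 1 to 4 and GTML 1 and 2 and 0.151 to 0.272% in the others. Values within each set are given beside the called network genes. For the other gene lists only the number of genes called within each set is given. Y-linked genes had 2115 to 3378 counts in all GMYC tumors but at most 16 in GTML 2, 3, 5 and 8, so Y-linked detection was not balanced between the models. The Group 3 medulloblastoma marker Otx2 had a mean of 315 CPM in GMYC and 322 CPM in GTML, and Crx had 385 and 325 CPM. The Crx mean of GTML includes GTML 2 at 97.4 CPM, against 297 to 403 CPM in the other GTML tumors. Npr3 was highest of all tumors in GTML 2, at 176 CPM. The summed level of 4 Group 3 markers was lowest of all tumors in GTML 2, at 529 CPM. GTML 2 had the highest summed level of 5 SHH pathway genes, at 137 CPM, against 13.1 to 83.8 CPM in the other tumors. The paper describes an outlier GTML tumor that also had an SHH-like signature, and left it out when comparing the models. The labels do not say which tumor that was. GTML 2 was kept in the main fit here, and results without GTML 2 are given for some genes and for the number of calls. Of 4 SHH genes tested, 2 were called higher in GTML (list median 1.32), and of 4 red blood cell genes tested, 3 were called higher in GMYC (list median -1.96), with summed red blood cell markers at 46.9 to 148 CPM in GMYC and 39.5 to 133 CPM in GTML. No gene of the astrocyte, microglia, endothelial or Purkinje cell lists was called, 1 was called higher in GTML on the oligodendrocyte list, and 1 higher in GMYC on the granule neuron list. All 5 astrocyte and all 5 Purkinje cell genes had a lower fitted level in GTML (list medians -0.853 and -0.676). Of all genes tested, 47.5% had a lower fitted level in GTML. The microglia and endothelial list medians were 0.161 and 0.164. The part of these in the network values was not tested.

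Of 21024 genes tested with edgeR, 4459 (21.2%) differed between the models at an adjusted p under 0.05. By direction, the GTML level was the higher for 11.5% of all genes tested and the GMYC level for 9.71%. Among the 10 network genes, 5 were called: Mycn, Mycs and Mnt were higher in GTML, and Myc and Mxi1 were higher in GMYC. In 3 of them, Myc, Mycn and Mycs, the 2 ranges did not overlap, which was the case for 4.62% of all genes tested. Myc and Mycn are the genes of the 2 transgenes, so their difference was set by the design. Mycs passed the filter on low counts only through GTML. The shares over all genes are given for scale, and these 3 genes do not make a result about the network. The same 5 were called with Y-linked detection as a term in the fit, with Mnt and Mxi1 at adjusted p values of 0.0478 and 0.0497. Fold changes below are log2 of GTML over GMYC, so a positive value is a higher level in GTML, and each p is from edgeR's quasi-likelihood test with Benjamini-Hochberg adjustment over all genes tested. The median log2 fold change of all genes tested was 0.036.

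**Figure D1:**
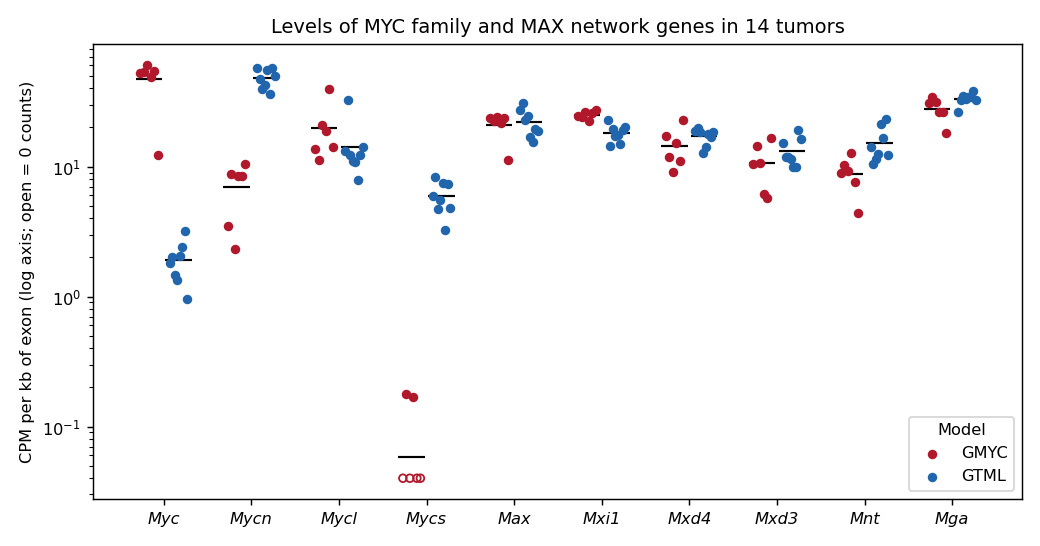
Level of each network gene in each tumor as CPM per kb of exon on a log axis, with GMYC tumors in red, GTML tumors in blue, a line at each mean and open circles for tumors with 0 counts. Only Myc, Mycn and Mycs separate the models completely, and GMYC 6 is the low red point for Myc, Max, Mnt and Mga.

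Myc, on chromosome 15, is the mouse ortholog of the GMYC transgene. It had 143, 145, 165, 134, 147 and 33.3 CPM in GMYC 1 to 6 and 4.93, 5.52, 3.99, 3.64, 5.59, 6.58, 8.66 and 2.59 CPM in GTML 1 to 8. Every GMYC tumor lay above every GTML tumor, but GMYC 6 was far below the other 5. The mean was 128 ± 47.5 CPM (SD, n = 6) in GMYC and 5.19 ± 1.89 CPM (SD, n = 8) in GTML, a log2 fold change of -4.63 ± 0.33 (SE, adjusted p = 3.94e-06), or 24.7-fold higher in GMYC. The log2 fold change was -4.80 among the tumors of higher snoRNA share and -4.13 among those of lower share, and both passed the test. Gene counts on the mouse genome hold no mark of origin, so reads of the human transgene and of the mouse gene cannot be told apart here. In GTML tumors the summed Myc count over all 8 libraries was 229, against 5259 in the 6 GMYC libraries.

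Mycn, on chromosome 12, showed the opposite order. It had 11.5, 28.8, 7.64, 27.9, 27.8 and 34.3 CPM in GMYC 1 to 6 and 191, 155, 130, 139, 184, 118, 189 and 164 CPM in GTML 1 to 8. The lowest GTML tumor was above the highest GMYC tumor, and GMYC 1 and 3 were the lowest of all. The mean was 23.0 ± 10.7 CPM (SD, n = 6) in GMYC and 159 ± 28.0 CPM (SD, n = 8) in GTML, a log2 fold change of 2.79 ± 0.29 (SE, adjusted p = 0.000152), or 6.91-fold higher in GTML. Within the higher snoRNA set the log2 fold change was 3.20 without passing the test (adjusted p = 0.159), where 2 of 18921 genes were called, and within the lower set it was 2.3 (adjusted p = 0.00301). Mycn made up 2.75 to 11.9% of the summed MYC family level in GMYC 1 to 5 and 28.2% in GMYC 6, where Myc was lowest. As for Myc, reads of the MYCN transgene and of the mouse gene cannot be told apart here.

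Mycs, an intronless family gene on chromosome X, was nearly absent from GMYC. Its read counts were 0, 3, 0, 3, 0 and 0 in GMYC 1 to 6 and 80, 121, 67, 72, 82, 40, 92 and 75 in GTML 1 to 8. It passed the filter on low counts only through GTML, since no GMYC tumor was above 1 CPM. Over all libraries of a model, 629 counts in GTML stood against 6 in GMYC, a ratio of 96.6 per total count with a 95% exact interval of 44.1 to 264 that covers counting error only. The fitted log2 fold change was 6.42 ± 0.61 (SE, adjusted p = 8.58e-05) and depends on the prior count. It could not be fitted in the higher snoRNA set and was 9.24 in the lower set (adjusted p = 0.00301).

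Mycs and Mycn were alike mainly in the step between the models. Over the 14 tumors, Mycs was the gene whose standardised log2 CPM lay closest to that of Mycn among 21023 genes, at a mean absolute difference of 0.209 SD. Next came Kcnh2, a potassium channel gene, at 0.223 SD, and Dusp26, a phosphatase gene, at 0.256 SD. There were 6.54 to 12.7 Mycs counts per 100 Mycn counts in GTML tumors, with a median of 8.86, and 0 to 1.46 in GMYC tumors. GMYC 6, with 243 Mycn counts, had 0 Mycs counts, and GTML 6, with 612 Mycn counts, had 40. Whether reads of Mycn or of the MYCN transgene were counted as Mycs was not tested, since only gene counts were used.

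**Figure D2:**
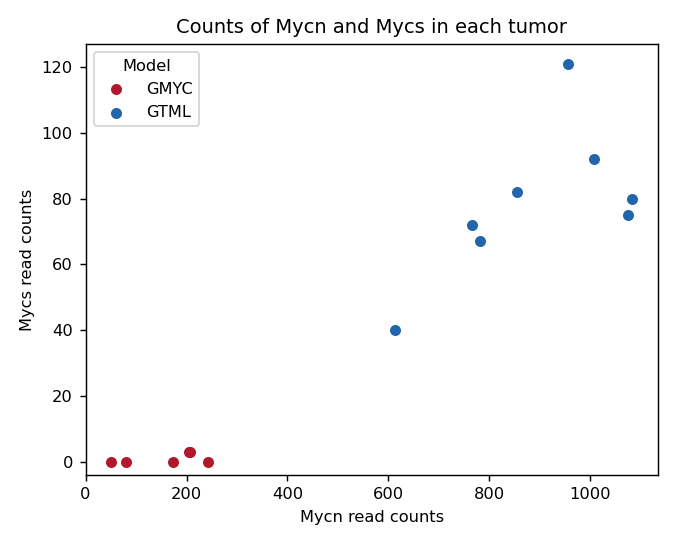
Read counts of Mycn (x axis) and Mycs (y axis) in each tumor, with 1 point per tumor and 2 GMYC points nearly on top of each other at 3 Mycs counts. The GMYC tumors hold 50 to 243 Mycn counts with at most 3 Mycs counts, and the GTML tumors hold 612 to 1083 Mycn counts with 40 to 121 Mycs counts.

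How alike the mouse paralogs are bears on how short reads can be assigned, so a stretch of their coding sequences is shown. The reference coding sequences (GENCODE, GRCm38) have 1362 bases in Myc, 1386 in Mycn, 1104 in Mycl and 1293 in Mycs. Mycn and Mycs were 74.8% identical over 1278 aligned bases, the highest value of the 6 pairs, and the others ran from 61.3% for Mycl and Mycs to 68.4% for Mycn and Mycl. The 60-base window of Mycn that the paralogs match best lies in MYC box I, the conserved stretch through which MYC protein turnover is controlled. It is given 5′ to 3′ on the coding strand, with capitals at the bases that differ from Mycn. The window starts at coding base 133 in Mycn and in Mycs, at 178 in Myc and at 73 in Mycl.
Mycn: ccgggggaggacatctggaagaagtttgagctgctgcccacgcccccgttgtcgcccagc
Mycs: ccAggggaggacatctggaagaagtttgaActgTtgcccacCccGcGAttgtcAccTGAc
Myc: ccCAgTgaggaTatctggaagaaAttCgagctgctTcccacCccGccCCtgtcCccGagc
Mycl: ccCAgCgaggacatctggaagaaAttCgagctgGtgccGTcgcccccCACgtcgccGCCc

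Mycs differed from Mycn at 11 of these 60 bases, Myc at 13 and Mycl at 14. The longest run shared by the coding sequences of mouse Mycn and Mycs was 34 bases, from coding base 332 to 365 in both, and no 50-base stretch of Mycs occurred unchanged in Mycn. It is shown, with no base in capitals, as the longest coding stretch in which a read could not be told between the 2 mouse genes. The MYCN transgene was not among the sequences compared, so these values do not show how its reads were assigned.
Mycn and Mycs, coding bases 332 to 365: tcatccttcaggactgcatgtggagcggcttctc

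Mycl, on chromosome 4, is, like Mycs, a paralog that neither transgene encodes. It had 54.7, 45.1, 85.1, 76.2, 160 and 57.6 CPM in GMYC 1 to 6 and 53.5, 131, 49.3, 44.2, 44.1, 31.9, 49.5 and 57.3 CPM in GTML 1 to 8. GMYC 5 and GTML 2 stood above the other tumors of their models, and the ranges overlapped. At a log2 fold change of -0.47 ± 0.31 (SE, adjusted p = 0.285), Mycl did not pass the test. It passed without GTML 2, at -0.76 (adjusted p = 0.0336), and within the lower snoRNA set, at -1.25 (adjusted p = 0.0337), while within the higher set, which holds GTML 2, the value was 0.51 (adjusted p = 0.606). Without GMYC 5 it was -0.14 (adjusted p = 0.746).

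Summed over Myc, Mycn and Mycl as counted on the mouse genes, the family reached similar ranges in both models. How many transgene reads were counted on the mouse genes is not known, and all levels are scaled by mouse exon length. The sums, shares and ratios of the family, and its order among the network genes, hold only for levels as counted here. The sum was 37.0 to 102 CPM per kb of exon in GMYC, with a median of 74.9, and 46.3 to 81.5 in GTML, with a median of 66.8. Myc made up 33.2 to 75.5% of it in GMYC and 1.47 to 5.23% in GTML, and Mycn made up 57.7 to 81.1% in GTML. Mycl held 15.2 to 38.8% in GMYC and 15.9 to 39.8% in GTML, with the largest shares in GMYC 5, GMYC 6 and GTML 2. The plot of summed levels shows these parts by tumor.

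**Figure D3:**
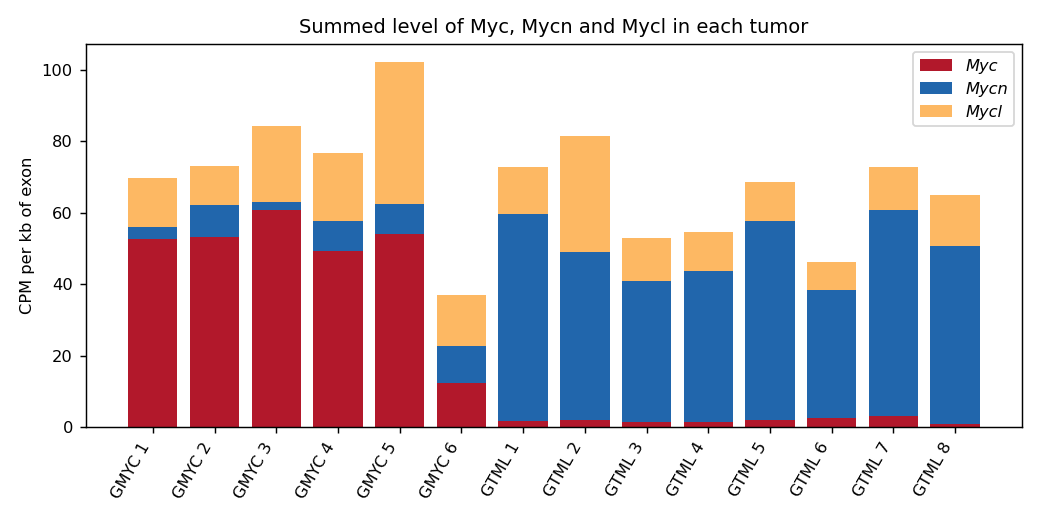
Stacked bars of the Myc, Mycn and Mycl levels in each tumor, in CPM per kb of exon from 0. Myc is the largest part in GMYC 1 to 5 and Mycn in all 8 GTML tumors, while GMYC 6 has the lowest sum, 37.0, with Mycl as its largest part at 38.6%.

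Max, on chromosome 12, encodes the obligate partner of every MYC protein. It had 84.8, 80.7, 85.9, 78.2, 84.4 and 40.1 CPM in GMYC 1 to 6 and 98.4, 111, 81.5, 87.7, 61.3, 56.1, 70.6 and 67.2 CPM in GTML 1 to 8. GMYC 1 to 5 lay close together and inside the GTML range, and GMYC 6 was below all other tumors. Its log2 fold change was 0.07 ± 0.19 (SE, adjusted p = 0.813), and it was -0.062 without GMYC 6 and -0.017 without GTML 2. The summed family level was 2.95 to 4.36 times that of Max in GMYC and 2.24 to 4.04 times in GTML, both per kb of exon.

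Mxi1, on chromosome 19, encodes a MAX partner that recruits SIN3 and represses transcription. It had 167, 164, 179, 153, 177 and 185 CPM in GMYC 1 to 6 and 156, 98.7, 132, 118, 119, 102, 130 and 138 CPM in GTML 1 to 8. The models overlapped only through GMYC 4 and GTML 1. The log2 fold change was -0.46 ± 0.10 (SE, adjusted p = 0.00952), or 1.38-fold higher in GMYC. It was -0.37 within the higher snoRNA set (adjusted p = 0.479) and -0.57 within the lower set (adjusted p = 0.031). Mxi1 shares 194 exon bases with the opposite-strand gene Gm10197, which had 4 counts over all tumors.

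Mnt, on chromosome 11, encodes another MAX partner that recruits SIN3 and is present in most cell types. It had 41.4, 47.2, 42.5, 58.7, 35.4 and 20.2 CPM in GMYC 1 to 6 and 65.1, 48.7, 53.1, 57.9, 98.2, 76.8, 108 and 56.4 CPM in GTML 1 to 8. GTML 5, 6 and 7 were the highest and GMYC 6 the lowest, and GMYC 4 lay inside the GTML range. The log2 fold change was 0.79 ± 0.23 (SE, adjusted p = 0.0278), or 1.72-fold higher in GTML. The call was lost without GMYC 3 (adjusted p = 0.054), GMYC 5 (0.0608), GTML 5 (0.0551) or GTML 7 (0.0543), with the log2 fold change between 0.68 and 0.80 in these fits. With snoRNA share as a term in the fit, the value was 0.87 (adjusted p = 0.0543), within the higher set it was 0.28 (adjusted p = 0.618) and within the lower set 1.42 (adjusted p = 0.0316).

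The other MAX partners did not pass the test. Mga, on chromosome 2, encodes the DNA-binding scaffold of the PRC1.6 complex, and was measured at 474, 526, 485, 403, 400 and 278 CPM in GMYC 1 to 6 and at 406, 497, 537, 505, 526, 524, 583 and 503 CPM in GTML 1 to 8. GMYC 6 was the lowest and GTML 7 the highest. Its log2 fold change was 0.25 ± 0.12 (SE, adjusted p = 0.142). It passed within the lower snoRNA set, at 0.63 (adjusted p = 0.0289), and was -0.05 within the higher set.

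Mxd4, on chromosome 5, and Mxd3, on chromosome 13, encode MXD repressors, the first linked to differentiated cells and the other to proliferating ones. Mxd4 ran from 76.4 to 193 CPM in GMYC, with a median of 114, and from 108 to 168 CPM in GTML, with a median of 154. GMYC 6 had the highest and GMYC 3 the lowest value of all tumors, and the log2 fold change was 0.24 ± 0.18 (SE, adjusted p = 0.329). Mxd3 ran from 13.5 to 39.0 CPM in GMYC, with a median of 25.1, and from 23.6 to 45.2 CPM in GTML, with a median of 28.1. For Mxd3 the log2 fold change was 0.31 ± 0.25 (SE, adjusted p = 0.374). Mxd3 shares 105 exon bases with Prelid1 on the opposite strand, which had 5281 counts over all tumors, and how the counting used strand is not given in the sources used here, so the Mxd3 values are uncertain.

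**Figure D4:**
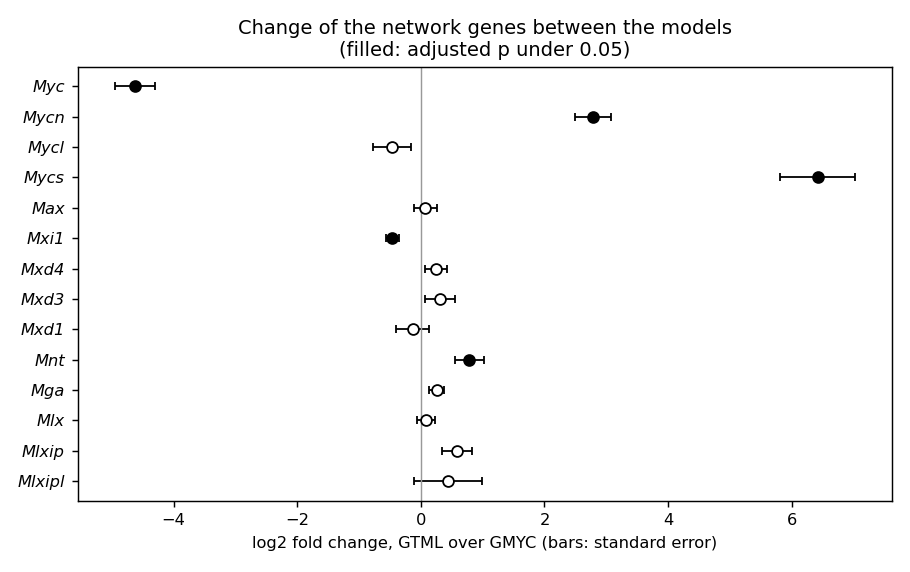
Log2 fold change of GTML over GMYC with its standard error for the network genes and for Mxd1, Mlx, Mlxip and Mlxipl, with filled points for an adjusted p under 0.05 in edgeR. Myc and Mxi1 lie below 0 and Mycn, Mycs and Mnt above 0 as filled points, and the other 9 genes are open.

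Ordered by level per kb of mouse exon, as counted on the mouse genes, the driver came first in each model. In GMYC the means fell from Myc (47.1 CPM per kb) through Mga (27.9), Mxi1 (25.1), Max (21.0), Mycl (19.8), Mxd4 (14.5), Mxd3 (10.7), Mnt (8.84) and Mycn (6.97) to Mycs (0.0581). In GTML they fell from Mycn (48.2) through Mga (33.2), Max (22.0), Mxi1 (18.2), Mxd4 (17.1), Mnt (15.2), Mycl (14.3), Mxd3 (13.2) and Mycs (5.92) to Myc (1.91). Genes next to each other in these orders had overlapping ranges over the tumors, except Mycn and Mycs in GMYC and, in GTML, Mxd3 and Mycs, and Mycs and Myc. Myc and Mga overlapped in GMYC only through GMYC 6. Among the 10 network genes, the 5 MAX partners other than the MYC proteins summed to 76.5 to 94.8 CPM per kb in GMYC and 87.0 to 116 in GTML. The MYC family sum was 0.416 to 1.34 times theirs in GMYC and 0.494 to 0.914 times in GTML. Mxd1, which encodes a further MAX partner, was left out of the sum and the ratio. Its mean was 7.11 CPM per kb in GMYC and 6.47 in GTML.

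GMYC 6 stood apart from the other GMYC tumors across the network. It had the lowest value of its model for Myc, Max, Mnt and Mga and the highest for Mycn, Mxd3, Mxd4 and Mxi1, so 8 of the 10 genes were at an extreme there, while 46.4% of all genes tested were at an extreme in this tumor. Cdkn1b, the gene of the cell cycle inhibitor p27, was also highest in GMYC 6, at 262 CPM against 123 to 163 CPM in the others. Among the Group 3 markers, Otx2 had 356 CPM in it, the highest of the GMYC tumors, and Crx 393 CPM, while Npr3 had 6.36 CPM, within a GMYC range of 4.49 to 67.4 CPM. Its summed red blood cell markers were the highest of all tumors, at 148 CPM, and its summed endothelial and Purkinje cell markers were the lowest of GMYC, at 48.4 and 109 CPM.

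Within each model, the level of the driver was set against each of the other network genes, with exact two-sided permutation tests on log2 CPM in 18 pairs. No pair had an adjusted p under 0.05, and 4 had an unadjusted p under 0.05. Myc and Max had the highest correlation in GMYC (r = 0.997, exact permutation p = 0.0111, adjusted p = 0.15, and rho = 0.829, permutation p = 0.0583, adjusted p = 0.49). It was r = 0.778 in the 4 tumors left without GMYC 3 and 6, the farthest from the median of Myc, so most of the range behind it was that of GMYC 6. Myc and Mxd4 ran the other way (r = -0.787, exact permutation p = 0.0167, adjusted p = 0.15, rho = -0.943, permutation p = 0.0167, adjusted p = 0.30), with r = -0.572 in the same 4 tumors. Myc and Mycn had r = -0.497 (exact permutation p = 0.0417, adjusted p = 0.189, rho = -0.714, permutation p = 0.136, adjusted p = 0.49), and r = -0.0855 in the 4 tumors. In GTML, Mycn and Mycs had r = 0.729 (exact permutation p = 0.042, adjusted p = 0.189, rho = 0.619, permutation p = 0.115, adjusted p = 0.49), and r = 0.253 in the 6 tumors left without GTML 3 and 6.

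**Figure D5:**
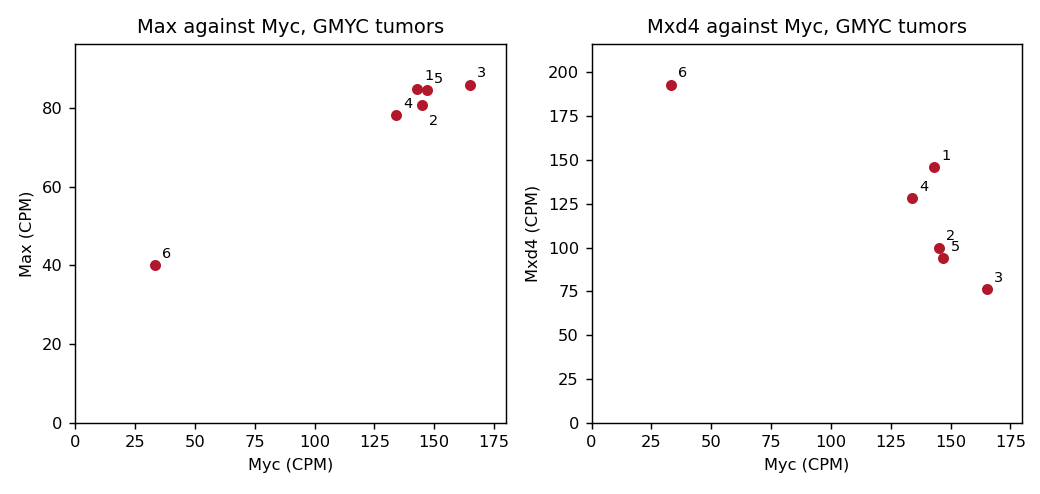
Max (left) and Mxd4 (right) against Myc in the 6 GMYC tumors, in CPM on axes from 0, with 1 numbered point per tumor. Tumor 6 has the lowest Myc and Max and the highest Mxd4, and tumors 1 to 5 lie between 134 and 165 CPM of Myc.

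The genes most like Myc over the 14 tumors were Gm13740 (mean absolute difference 0.288 SD), Lin28b (0.302 SD) and Gm12165 (0.305 SD). Lin28b encodes an RNA-binding protein that blocks let-7 maturation, and had 159 ± 21.6 CPM (SD, n = 6) in GMYC and 89.4 ± 14.2 CPM (SD, n = 8) in GTML, with no overlap. Gm13740 and Gm12165 are processed pseudogenes with few reads, at 87 and 182 counts over the GMYC tumors and 35 and 84 over the GTML tumors. Mxi1 was the network gene most like Myc, in place 918 of 21023 at 0.574 SD. This measure spans both models and so mainly follows the step between them. Within GMYC, Myc and Mxi1 had r = -0.499 and rho = 0.0857, and r = 0.914 in the 4 tumors left without GMYC 3 and 6.

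The rest of the extended network had no called gene among 4 tested, where 21.2% of all genes were called. Mlxip, which encodes the glucose-responsive MLX partner MondoA, had the largest difference, at 0.58 ± 0.25 (log2, SE, adjusted p = 0.0957), with 26.5 to 54.9 CPM in GMYC and 28.9 to 92.4 CPM in GTML. It passed without GTML 3, at 0.69 (adjusted p = 0.035). Mxd1 was at -0.14, Mlx at 0.08 and Mlxipl, with 1.08 CPM on average in GMYC and 1.47 in GTML, at 0.43. None of the 4 tested genes beside Myc or Mycn on the chromosome was called: the log2 fold changes of Ddx1, Nbas and Fam49a, near Mycn, were -0.12, 0.19 and -0.38, and that of Fam84b, near Myc, was -0.16. Fam84b, which had 70.1 CPM in GTML 2 and at most 18.1 CPM in the other GTML tumors, was called without GTML 2, at -0.83 (adjusted p = 0.0335). Gsdmc, near Myc, had 1 count over all tumors and was not tested, and 3 other symbols on the neighbour list were not found.

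Genes that act with the MAX partners were called in both directions. Among the corepressor genes, Sin3b (0.44 ± 0.11, adjusted p = 0.0116) was higher in GTML, and Sap18 (-0.46 ± 0.12, adjusted p = 0.0154) and the histone deacetylase gene Hdac2 (-0.37 ± 0.08, adjusted p = 0.00909) were higher in GMYC, all by edgeR with SE. Of 9 genes of the PRC1.6 complex around MGA, 0 were called higher in GTML and 2 higher in GMYC, which is 22.2% against 21.2% of all genes. These 2 were the heterochromatin protein gene Cbx3 (-0.55 ± 0.16, adjusted p = 0.0237) and the repressor gene E2f6 (-0.43 ± 0.14, adjusted p = 0.0446). The median log2 fold change of that list was -0.12, against 0.036 over all genes tested.

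The chromatin cofactors of MYC gave 1 of 12 genes higher in GTML, Bptf, a subunit of the NURF remodeler (0.34 ± 0.10, adjusted p = 0.0324), and 2 higher in GMYC. These were the helicase gene Ruvbl2 (-0.36 ± 0.12, adjusted p = 0.0385) and the SWI/SNF subunit gene Smarcb1 (-0.30 ± 0.09, adjusted p = 0.034). The list median was 0.10. None of 12 regulators of MYC protein turnover passed the test in edgeR at an adjusted p under 0.05, and 3 of them had an unadjusted p under 0.05. Over all genes tested, 21.2% passed the test and 7938 of 21024 had an unadjusted p under 0.05. The median of the 12 turnover regulators was -0.05.

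Among 32 genes that MYC is known to activate, 5 were called higher in GMYC and 0 higher in GTML, which is 15.6% against 21.2% of all genes. A negative log2 fold change was found for 30 of the 32 (93.8%), against 47.5% of all genes tested, and the list median was -0.21. Impdh2, of guanine nucleotide synthesis, had 136 to 171 CPM in GMYC and 58.7 to 122 CPM in GTML, without overlap, and a log2 fold change of -0.82 ± 0.15 (SE, adjusted p = 0.00477). Bop1, of ribosome assembly, was at -0.71 ± 0.16 (SE, adjusted p = 0.00884) and Fbl, of ribosomal RNA modification, at -0.52 ± 0.15 (SE, adjusted p = 0.0242). Pa2g4 (-0.43) and Cdk4 (-0.40) were the other 2. Tert, the telomerase gene, was at 0.87 without passing the test (adjusted p = 0.0914).

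Of 8 genes that MYC is known to repress, 2 were called higher in GTML and 1 higher in GMYC, which is 37.5% against 21.2% of all genes. A negative log2 fold change, the higher level in GMYC, was found for 6 of the 8 (75.0%), against 47.5% of all genes tested. The list median was -0.31. Only the 2 genes called higher in GTML, Cdkn2b and Ccnd1, had a positive value. Cdkn2b, the gene of the cyclin-dependent kinase inhibitor p15, had 0.643 to 2.42 CPM in GMYC and 12.7 to 23.4 CPM in GTML, a log2 fold change of 3.71 ± 0.33 (SE, adjusted p = 4.7e-05). Ccnd1, the gene of cyclin D1, had 14.4 to 75.7 CPM in GMYC and 86.3 to 156 CPM in GTML, also without overlap, at 1.71 ± 0.29 (SE, adjusted p = 0.00323). Cdkn1b was at -0.55 ± 0.17 (SE, adjusted p = 0.0366), with overlapping ranges. Over all 8 lists beyond the network itself, 17 of 90 genes tested were called (18.9%, against 21.2% of all genes), and the number was 28 without GTML 2, 9 without GMYC 3, 10 without GMYC 5 and 11 without GTML 5. In the same 4 fits the share called among all genes was 30.7, 12.5, 13.9 and 14.8%. The count was 11 with snoRNA share as a term, 0 within the higher set and 11 within the lower set. The share called among all genes in these 3 fits was 13.6, 0.0106 and 13.3%.

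The E-box letters CACGTG, which read the same on both strands, were looked for in the RefSeq promoters of GRCm38.p6 (250 bases before to 50 after the start). Of the 9 network genes with an entry (all but Myc), Max, Mnt and Mxd4 held them (33.3%), against 8.1% of 27025 genes. In Max they began 3 bases before the start, in Mnt 123 and in Mxd4 219 bases before it. The windows of Mnt, on the plus strand at chr11:74830774-74830833, and of Mxd4, on the minus strand at chr5:34187897-34187956, are given 5′ to 3′ with the E-box in capitals, since Mnt was called between the models and Mxd4 was not.
Mnt: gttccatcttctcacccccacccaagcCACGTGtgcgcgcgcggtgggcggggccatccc
Mxd4: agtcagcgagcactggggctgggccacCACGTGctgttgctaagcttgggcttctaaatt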

How the data were processed

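RNA from 14 tumor biopsies was sequenced on an Ion Torrent instrument. The authors aligned the reads to mm9 with STAR and then Bowtie and deposited raw counts per gene, made with featureCounts; the processing notes name STAR 2.4.0, Bowtie2 2.2 and Subread 1.5.2. The handling of strand and of duplicate reads is not given in the sources used here. A further 18 columns, whose names match no label, were not used. Gene symbols and exon lengths came from GENCODE for GRCm38 by Ensembl identifier (32620 of 37310 genes, 87.4%). Genes above 1 CPM in 3 or more tumors were tested with edgeR 4.0.16 in R 4.3.3 (TMM, quasi-likelihood test, Benjamini-Hochberg), in place of the limma-voom fit of the study. Code was checked on simulated counts. Correlations used log2 CPM with a prior count of 2. Named genes were all network and neighbour genes, the 3 called genes of largest change per further list and the 3 genes most like Myc and like Mycn; Hdac2, Pa2g4, Cdk4 and Tert were named after their values were seen. A gene that this rule selects is not reported here. The genes and lists were chosen with earlier results of these data known. Total counts of 4602294 to 7279811 set the precision. Alternatives covered the test, scaling, filter, samples, batch terms and the call. Tumors with equal numbers did not deviate together (r = -0.212 to 0.24 over 6 pairs). Figures were drawn with matplotlib 3.10.9.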

Additional observations from a re-analysis of the deposited data

Results flagged for a closer look

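A value is listed here where the tumor at either end of a model's range was separated from its nearest neighbour by a large part of that range (Dixon's 95% criterion). This was the case in 11 of 75 groups of values, and chance alone marks about 1 in 20 groups. The marker genes Otx2, Crx, Npr3 and Gli1 were not among these groups. In GTML 2, Crx was lowest of its model at 97.4 CPM with the next tumor at 297 CPM, and Otx2 at 237 CPM with the next at 269 CPM. Npr3 was highest there at 176 CPM with the next at 62.3 CPM, and the SHH pathway gene Gli1 at 14.1 CPM with the next at 3.58 CPM. In GMYC 6, Myc was lowest at 33.3 CPM with the next tumor at 134 CPM (gap over range 0.763), Max was lowest at 40.1 CPM with the next at 78.2 CPM (0.832), and Cdkn1b was highest at 262 CPM with the next at 163 CPM (0.715). In GTML 2, Mycl was highest at 131 CPM with the next at 57.3 CPM (0.743), and Fam84b, a neighbour of Myc, was highest at 70.1 CPM with the next at 18.1 CPM (0.82). Myc itself had 5.52 CPM in GTML 2.

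Mycl was highest in GMYC 5 at 160 CPM, with the next tumor at 85.1 CPM (0.652). Ccnd1 was highest in GMYC 2 at 75.7 CPM, with the next at 35.0 CPM (0.663). In GMYC 4, Fam49a was highest at 40.8 CPM with the next at 24.4 CPM (0.632), and Cbx3 was lowest at 66.3 CPM with the next at 83.3 CPM (0.68). Mlx was highest in GTML 3 at 64.3 CPM, with the next at 45.8 CPM (0.659). Gsdmc had a single read, in GTML 8, and 0 in all others (1.0).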

How the results depend on the processing

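The 5 called network genes became 3 with the replicate block (Mxi1 and Mnt lost, adjusted p = 0.0728 and 0.155), 1 in the higher snoRNA set and 3 at an adjusted p under 0.01 with an absolute log2 fold change above 1. The tumor numbers name no shared mouse or day, so the block shows only how calls move. The 17 called genes of the other lists became 2 with the replicate block, 28 in the set of 7 GTML tumors (without GTML 2), 11 with the snoRNA term, 0 in the higher and 11 in the lower set, 9 with a term for Y-linked detection and 2 at the stricter threshold, and ran from 9 to 28 when each tumor was left out. Over all genes the calls were 251 with the block and 6430 in the set of 7 GTML tumors, against 4459. The share of all genes called, 21.2% in the main fit, was 1.22% with the block and 30.7% in the set of 7 GTML tumors. It was 13.6% with the snoRNA term, 0.0106% in the higher set, 13.3% in the lower set and 9.76% with the Y-linked term. With each tumor left out it ran from 12.5 to 30.7%. For the stricter threshold no share over all genes is given. No correlation passed under any of 3 alternatives. Directions changed only among uncalled genes: in the higher set for Mycl (0.51), Mga (-0.054), Fam84b (0.86), Ddx1 (0.14) and Fam49a (0.11), in the lower set for Mxd4 (-0.056) and Mlx (-0.11), with the snoRNA term for Mlx (-0.010) and Fam84b (0.084), in the set of 7 GTML tumors for Max (-0.017), and with single tumors left out for Max (-0.062 to 0.12), Mxd1 (-0.26 to 0.080) and Mlx (-0.014 to 0.16). Mycs had no value in the higher set. The comparisons of onalespib-treated and Arf knockout cells were not run, since their columns matched no label.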
